A study of Mus musculus with 6 samples.

Results

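Glutathione, thioredoxin and NRF2 genes were compared between cholangiocytes, the epithelial cells lining the bile ducts, of mice labelled PLD, for polycystic liver disease, and of wild-type (WT) mice. The set was defined by gene name, but with earlier results of these data known, so no count over it is independent support. It holds the protein-coding genes of the glutathione S-transferase families (Gsta, Gstk, Gstm, Gsto, Gstp, Gstt, Gstz and Mgst), the glutathione peroxidases (Gpx) and the peroxiredoxins (Prdx), and 14 genes named one by one, which are Gclc, Gclm, Gss, Gsr, Txn1, Txnrd1, Srxn1, Nqo1, Hmox1, Nfe2l2, Keap1, Sod1, Sod2 and Cat. This gave 54 of the 55401 gene IDs in the tables, of which 21897 are protein-coding, and 5 pseudogenes whose names match the families were left out. Each group held 3 RNA libraries, made from polyadenylated RNA of primary cholangiocytes. Both groups received tamoxifen, and cells were collected 3 months later, so WT denotes tamoxifen-treated mice as well. The altered gene, how tamoxifen acts on it, and the sex, age and strain of the mice are not stated in the labels, nor is it stated whether a library came from 1 animal or from several. Cells were pulled from digested biliary trees with an antibody against EpCAM, an epithelial surface protein, on magnetic beads.

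Glutathione is a small peptide whose thiol group reduces peroxides and is joined to reactive lipids, drugs and bile-borne toxins by the glutathione S-transferases. It is made in a pair of steps, by glutamate-cysteine ligase and then glutathione synthetase, and is returned to its reduced form by glutathione reductase. Peroxiredoxins, thioredoxin and thioredoxin reductase form a parallel line of thiol defence. NRF2, encoded by Nfe2l2, is a transcription factor that KEAP1 normally marks for degradation. When thiols of KEAP1 are modified, NRF2 protein accumulates and binds antioxidant response elements near many of these genes, so its activity is set largely by protein stability. Cholangiocytes meet bile acids and excreted conjugates on their luminal side, and NRF2-linked enzymes are known as part of their protection.

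Library totals lay between 15768561 and 16710548 reads. Levels are given as CPM, reads scaled to a common library size, on which 3 reads are worth 0.177 to 0.206 CPM. The defining cholangiocyte markers Krt7, Krt19, Epcam and Sox9 had reads in every library. Of 18 cholangiocyte markers, 14 were higher and 1 was lower in PLD, and their summed level ran from 33178 to 46176 CPM in PLD and from 9693 to 14106 CPM in WT. Endothelial and stromal markers moved the other way. All 14 endothelial markers were lower in PLD (summed level 523 to 876 CPM against 6139 to 8057 CPM in WT), as were 8 of 8 smooth muscle markers (167 to 290.0 against 2627 to 2799.9 CPM) and 11 of 14 fibroblast and stellate cell markers, with 1 higher (1904 to 4887 against 7439 to 12564 CPM). Of 16 hepatocyte markers 9 were lower and 2 higher, although their sum ran from 2197 to 6275 CPM in PLD and from 1671 to 3086 CPM in WT. Alb held most of that sum (1301 to 5503 CPM in PLD and 1083 to 1885 CPM in WT), and the 15 others, summed after the values were seen, overlapped between the groups (772 to 896 against 588 to 1337 CPM). Among immune markers, 1 of 12 for macrophages (Csf1r) was higher and 1 (Mrc1) lower (595 to 814 against 785 to 1054 CPM), 3 of 5 tested for neutrophils were lower (11.3 to 29.0 against 79.3 to 97.4 CPM), and 3 of 6 tested for lymphocytes were higher and 1 lower (123 to 245 against 33.2 to 88.7 CPM). No erythroid marker had enough reads to be tested, and Hbb-bt had no read in PLD. No marker of the other lists had 0 reads in all libraries of PLD. The part that this difference in makeup has in the results below was not tested. In bulk RNA, fewer cells of a type and less RNA per cell cannot be told apart.

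Together the 54 genes held 0.806, 0.741 and 0.731% of all counted reads in the 3 PLD libraries and 0.447, 0.408 and 0.424% in the 3 WT libraries, so the PLD libraries all lay above the WT libraries. Enough reads for a test were present for 48 genes, and 6 were not tested. Of the 48, 26 were higher in PLD by edgeR's quasi-likelihood test at an adjusted p under 0.05, 5 were lower and 17 did not pass. Over all 15334 tested genes, 27% were called higher and 28.4% lower, 55.4% in all. The median log2 fold change was 0.59 over the 48 genes and 0.01 over all tested genes. In 28 of the 48 genes every PLD value lay above every WT value (33% of all tested genes), and in 5 every PLD value lay below (33.2%). A difference of at least 2-fold with a call was found in 14 genes that were higher (9.21% of all tested genes) and in 2 that were lower (18.1%). The test for a difference beyond 2-fold itself called 626 genes higher and 1650 lower among all 15334 tested. In the set it passed for 9 of the 14 and for neither of the 2. These genes are short, with a median exonic length of 1901 bases against 4230 bases over all tested genes, and short genes more often rose in these data. Among tested genes of up to 3103 bases, 33.7% were higher and 20.9% lower, and of the 33 set members of that length 18 were higher and 5 lower. Among the 11 members between 3103 and 5647 bases, 5 were higher and 0 lower (28% and 28% of all tested genes of that length), and among the 4 longer ones 3 were higher and 0 lower (19.2% and 36.4%).

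**Figure D1:**
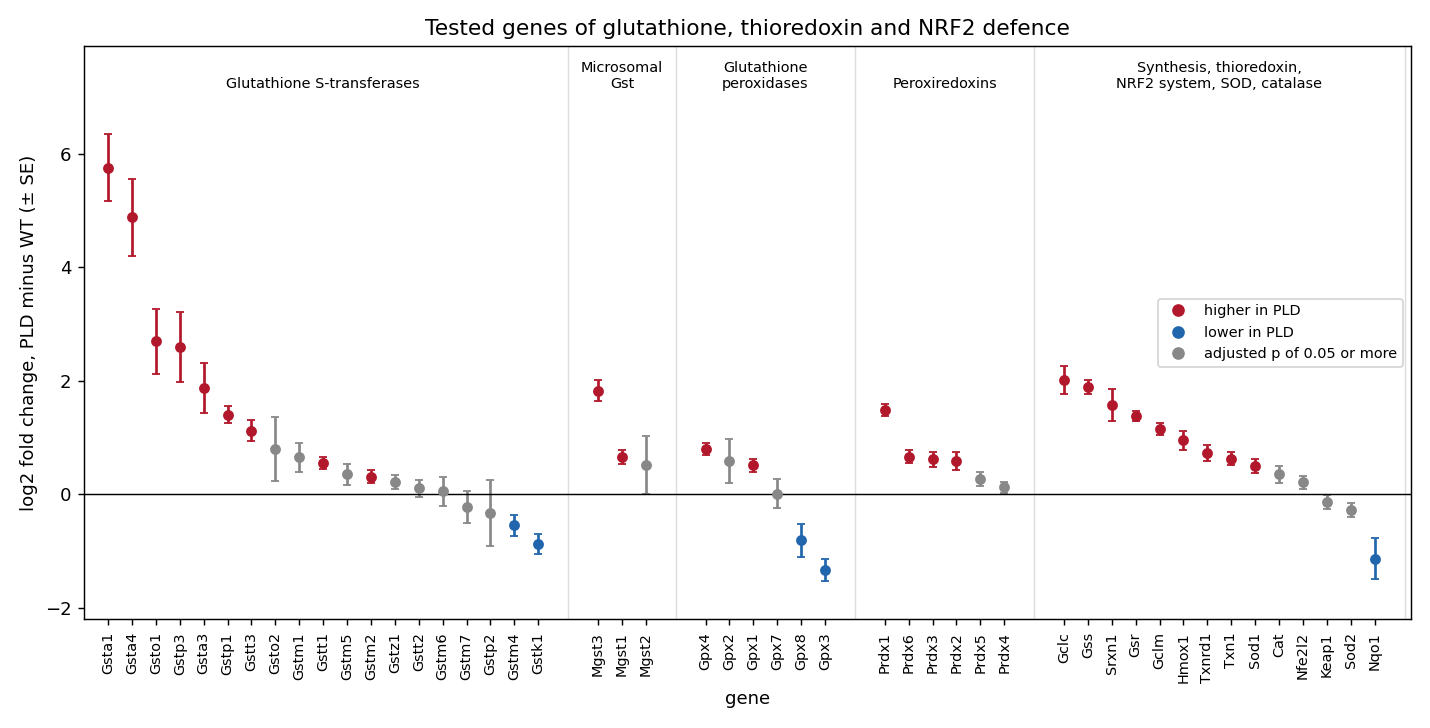
Each point is the log2 fold change (PLD minus WT) of 1 of the 48 tested genes with its standard error, from 3 libraries per group, ordered within each family. Red points (26) were called higher, blue points (5) lower and grey points (17) had an adjusted p of 0.05 or more. Gsta1 and Gsta4 lie highest and Gpx3 and Nqo1 lowest.

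The 4 genes of glutathione synthesis and recycling were all higher in PLD. Gclc, at chr9:77754535-77794485 (mm10), encodes the catalytic subunit of glutamate-cysteine ligase, the rate-limiting enzyme of glutathione synthesis. Its level was 776, 612 and 778 CPM in PLD replicates 1, 2 and 3 and 247, 128 and 161 CPM in the WT replicates (log2 fold change 2.01 ± 0.25, adjusted p = 0.000517). Gclm, the modifier subunit that makes this enzyme more efficient, was at 132, 138 and 154 CPM in PLD and 64.9, 58.4 and 67.8 CPM in WT (log2 fold change 1.15 ± 0.11, adjusted p = 0.000157). Gss, glutathione synthetase, which completes the peptide, was at 138, 117 and 112 CPM in PLD and 33.2, 30.0 and 36.0 CPM in WT (log2 fold change 1.89 ± 0.12, adjusted p = 5.27e-05). The groups of all 3 genes were well apart, and the spread within a group was widest for Gclc. Gsr, glutathione reductase, which recycles oxidised glutathione with NADPH, was at 122, 120.0 and 123 CPM in PLD and 46.2, 43.6 and 49.7 CPM in WT (log2 fold change 1.39 ± 0.09, adjusted p = 5.28e-05), with hardly any spread between replicates. Levels per kb of exon compare different genes only roughly, since the length takes in all annotated exons, whether or not they are expressed here. On that scale Gclc stood at 192 ± 25.4 CPM per kb in PLD and 47.5 ± 16.3 in WT (SD, n = 3) and Gclm at 22.5 ± 1.84 CPM per kb in PLD and 10.1 ± 0.769 in WT (SD, n = 3).

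The largest differences in the set were in the class alpha glutathione S-transferases, enzymes that join glutathione to lipid peroxidation products and other electrophiles and are abundant in liver. All 3 tested class alpha genes were higher in PLD. Gsta4, at chr9:78182774-78209349, whose enzyme prefers reactive lipid aldehydes such as hydroxynonenal, was at 889, 565 and 584 CPM in PLD and 48.6, 9.07 and 11.3 CPM in WT (log2 fold change 4.88 ± 0.68, adjusted p = 0.000875). WT replicate 1 held several times as much as the other WT libraries and still lay far below every PLD library. Leaving out WT replicate 1 gave a log2 fold change of 6.06. Per kb of exon Gsta4 was the most abundant of the 54 genes in PLD and ranked 25 in WT, with 537 ± 144 CPM per kb in PLD and 18.2 ± 17.5 in WT (SD, n = 3). Gsta3, at chr1:21240589-21265661, known in mice for conjugating aflatoxin epoxide, was at 549.9, 207 and 165 CPM in PLD and 105, 70.3 and 75.8 CPM in WT (log2 fold change 1.87 ± 0.44, adjusted p = 0.00911). The groups did not overlap, but PLD replicate 1 was well above the others of its group, and leaving it out gave a log2 fold change of 1.16. Gsta1 had 13.3, 6.09 and 7.67 CPM in PLD and 0.353, 0.0589 and 0.0617 CPM in WT, where it had 6, 1 and 1 reads (log2 fold change 5.75 ± 0.59, adjusted p = 0.000242). A fitted fold change against so few reads depends on the small constant added by the fit, and leaving out WT replicate 1 gave 7.05. Gsta2 was not tested. It had 32 reads in PLD and 2 in WT, a ratio of 15.9 per total reads with a 95% exact binomial interval from 4.07 to 137 that covers counting error only. Hepatocytes are also rich in class alpha enzymes, and the sum of the 16 hepatocyte markers was 2197, 5884 and 6275 CPM in PLD and 1671, 3086 and 2786 CPM in WT. Without Alb it was 896, 802 and 772 CPM in PLD and 588, 1337 and 901 CPM in WT. The part of hepatocyte RNA in the class alpha values was not tested.

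Gsta1 and Gsta2 cannot be counted apart with confidence, which their coding sequences make visible. The first 60 coding bases of the 4 class alpha genes, from GENCODE vM21 on GRCm38, are shown because they separate Gsta4 and Gsta3 from the near-identical pair. Capitals mark bases that differ from Gsta1.
Gsta1, chr9, plus strand: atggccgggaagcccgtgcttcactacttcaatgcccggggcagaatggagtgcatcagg
Gsta2, chr9, minus strand: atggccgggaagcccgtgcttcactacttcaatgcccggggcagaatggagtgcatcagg
Gsta3, chr1, plus strand: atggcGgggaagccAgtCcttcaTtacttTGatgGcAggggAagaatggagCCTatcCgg
Gsta4, chr9, plus strand: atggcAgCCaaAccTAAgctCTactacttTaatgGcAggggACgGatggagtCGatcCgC
Within these bases Gsta2 differs from Gsta1 at 0 positions, Gsta3 at 13 and Gsta4 at 19. Over the whole transcripts, 90.5% of the 50-base words of Gsta1 and 49.8% of those of Gsta2 occur in another gene, in Gsta1 mostly in Gsta2 and the predicted gene Gm3776. Gsta4 shares none and Gsta3 shares 0.273%. Reads of the shared stretches fit several genes, so the values of Gsta1 and Gsta2 are uncertain, while those of Gsta3 and Gsta4 rest almost wholly on sequence of their own.

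Outside class alpha, 6 further transferases were higher, Gsto1 and Gstp3 by the most. Gsto1, at chr19:47854970-47864790, a class omega enzyme that reduces dehydroascorbate and protein-bound glutathione, was at 555, 379.6 and 369 CPM in PLD and 135, 32.5 and 33.2 CPM in WT (log2 fold change 2.70 ± 0.57, adjusted p = 0.00549). WT replicate 1 was again high, though below every PLD library, and its removal gave a log2 fold change of 3.72. Gstp3, of class pi, had a like pattern at a low level, 11.2, 5.85 and 5.87 CPM in PLD and 2.65, 0.530 and 0.555 CPM in WT (log2 fold change 2.60 ± 0.62, adjusted p = 0.00903), with a log2 fold change of 3.79 without WT replicate 1. Gstp1, the main class pi enzyme and in human liver a known product of bile duct epithelium, was at 215, 181 and 164 CPM in PLD and 80.7, 68.8 and 61.6 CPM in WT (log2 fold change 1.41 ± 0.15, adjusted p = 0.000253), and its groups were well apart. Reads it shares with Gstp2 and a pseudogene (33.7% of its 50-base words) make its level uncertain. Of the class theta enzymes, Gstt3 was at 23.6, 26.8 and 24.0 CPM in PLD and 14.7, 9.42 and 9.99 CPM in WT (log2 fold change 1.12 ± 0.19, adjusted p = 0.00189), Gstt1 was higher by less (log2 fold change 0.55 ± 0.10, adjusted p = 0.00273), and Gstt2 did not pass (log2 fold change 0.11).

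The class mu transferases, the other large cytosolic class of mouse liver, gave mixed calls. Of 6 tested genes, 1 was higher, 1 lower and 4 did not pass. Gstm1, the second most abundant of all 54 genes per kb of exon in both groups, was at 526, 297 and 259.6 CPM in PLD and 234, 234 and 219.9 CPM in WT (log2 fold change 0.65 ± 0.25, adjusted p = 0.0578). Every PLD value of Gstm1 lay above every WT value, but PLD replicate 1 was far above the other PLD libraries, which lay close to WT, and the test was not passed. It was passed with DESeq2, with edgeR without a low-count filter (log2 fold change 0.66), and with edgeR without PLD replicate 1 (0.29) or without PLD replicate 3 (0.85). Gstm2 was slightly higher (log2 fold change 0.32 ± 0.11, adjusted p = 0.0405), a call that ended without a low-count filter, with the length trend removed, and when any library other than PLD replicate 3 was left out. Gstm4 was lower, at 4.40, 5.54 and 5.81 CPM in PLD and 7.54, 7.71 and 7.77 CPM in WT (log2 fold change -0.54 ± 0.18, adjusted p = 0.0336), and that call ended without a low-count filter and when any of those same libraries was left out. Gstm5, Gstm6 and Gstm7 had log2 fold changes of 0.36, 0.05 and -0.21 and did not pass. Gstk1, the class kappa enzyme of mitochondria and peroxisomes, was lower, at 13.1, 8.95 and 9.53 CPM in PLD and 18.7, 17.8 and 21.1 CPM in WT (log2 fold change -0.87 ± 0.18, adjusted p = 0.00467). Gstz1, an enzyme of tyrosine breakdown, Gsto2 and Gstp2 did not pass (log2 fold changes 0.22, 0.80 and -0.32).

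The makeup of the transferase pool differed accordingly. Levels were divided by exon length and each class was given as a share of the summed Gst level of its library. Class alpha held 44.5 ± 2.47% in PLD against 8.80 ± 3.73% in WT (SD, n = 3). Class mu held 22.9 ± 1.31% in PLD against 53.7 ± 7.07% in WT. Class omega held 15.7 ± 0.444% in PLD against 7.60 ± 5.54% in WT, and class theta 6.33 ± 1.36% in PLD against 13.9 ± 1.95% in WT. Class pi held 9.58 ± 1.04% in PLD against 11.6 ± 0.650% in WT, class kappa 0.526 ± 0.0396% in PLD against 3.24 ± 0.589% in WT and class zeta 0.426 ± 0.0642% in PLD against 1.21 ± 0.111% in WT. For each of the 7 classes the PLD and WT shares did not overlap (2-sided exact permutation test, p = 0.1, the smallest that 3 libraries against 3 allow). A single gene accounted for most of the class alpha share: Gsta4 alone held 39.0 ± 1.63% in PLD against 4.09 ± 3.36% in WT, while Gstm1 held 17.4 ± 2.20% in PLD against 38.4 ± 4.89% in WT. The summed level was 1801, 1194 and 1136 CPM per kb in PLD and 482, 374 and 376 CPM per kb in WT, so a lower share of class mu did not mean a lower level.

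**Figure D2:**
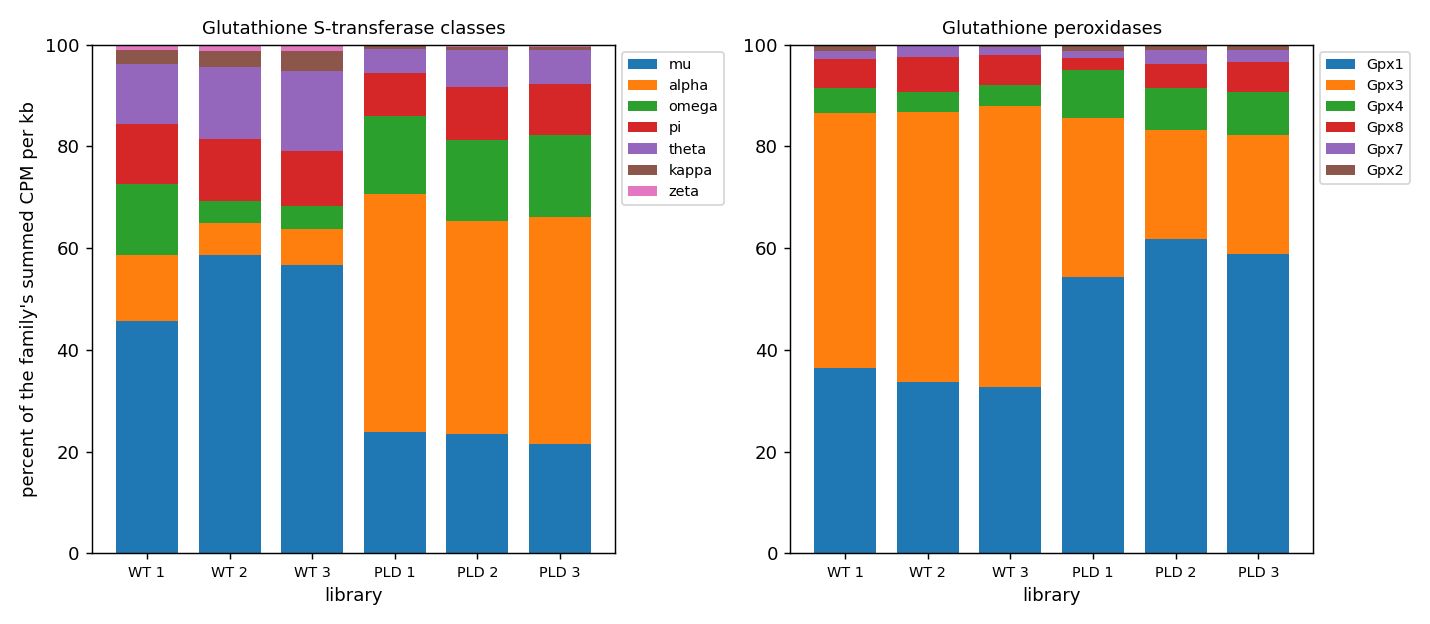
Stacked shares, in percent of the summed CPM per kb of each library, of the Gst classes (left) and the Gpx genes (right) in the 3 WT and 3 PLD libraries. Class alpha takes 41.9 to 46.9% in PLD and 6.27 to 13.1% in WT, and Gpx3 gives way to Gpx1 as the largest share of the peroxidases.

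Of the 3 microsomal transferases, membrane-bound enzymes of a separate protein family, 2 were higher. Mgst3, which reduces lipid hydroperoxides with glutathione, was at 61.5, 64.6 and 55.2 CPM in PLD and 21.9, 13.6 and 15.4 CPM in WT (log2 fold change 1.83 ± 0.18, adjusted p = 0.000226). Mgst1, the abundant form of liver microsomes and mitochondria, was at 264, 219 and 198 CPM in PLD and 139, 149 and 144 CPM in WT (log2 fold change 0.66 ± 0.12, adjusted p = 0.00346). The groups did not overlap in either gene. Mgst2 was near the detection limit, at 1.03, 2.01 and 1.56 CPM in PLD and 1.94, 0.706 and 0.555 CPM in WT, and did not pass (log2 fold change 0.52 ± 0.51, adjusted p = 0.415). Without WT replicate 1, its highest WT library, it passed with a log2 fold change of 1.28.

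The glutathione peroxidases, which spend glutathione to reduce peroxides, differed in direction. The intracellular Gpx1 and Gpx4 were higher in PLD, the secreted Gpx3 and the endoplasmic reticulum form Gpx8 were lower, and Gpx2 and Gpx7 did not pass. Gpx1, the main cytosolic form, was at 276, 315 and 270.4 CPM in PLD and 188, 209.9 and 206 CPM in WT (log2 fold change 0.51 ± 0.11, adjusted p = 0.00529), a call that ended once the trend with gene length was removed. Gpx4, which reduces lipid hydroperoxides in membranes and so restrains ferroptosis, was at 57.9, 50.2 and 47.1 CPM in PLD and 29.4, 28.8 and 30.6 CPM in WT (log2 fold change 0.80 ± 0.11, adjusted p = 0.000822). It shares 34.7% of its 50-base words with pseudogenes and a predicted gene, which makes its level uncertain. Gpx3, at chr11:54902453-54910377, the peroxidase of plasma and extracellular space, was at 199.8, 137 and 135 CPM in PLD and 328, 417 and 438 CPM in WT (log2 fold change -1.33 ± 0.19, adjusted p = 0.00101). The highest PLD library lay far below the lowest WT library. Per kb of exon it was the most abundant of the 54 genes in WT and ranked 15 in PLD. Gpx8 was at 8.66, 17.5 and 19.4 CPM in PLD and 21.7, 31.4 and 27.0 CPM in WT (log2 fold change -0.81 ± 0.29, adjusted p = 0.0459). Its groups lay next to each other, and the call ended without PLD replicate 2, WT replicate 2 or WT replicate 3. Gpx2, a form of gut epithelium, had a log2 fold change of 0.59, and of 1.20 with a call without WT replicate 1, where it was highest among the WT libraries. Gpx7 had 0.02. As a share of the summed peroxidase level per kb, Gpx1 held 58.3 ± 3.81% in PLD against 34.2 ± 1.91% in WT and Gpx3 25.3 ± 5.22% in PLD against 52.9 ± 2.52% in WT (SD, n = 3; exact permutation p = 0.1 for each, the smallest possible). Like Gpx3 and Gpx8, the endothelial, smooth muscle and fibroblast marker sums were lower in PLD (523 to 876, 167 to 290.0 and 1904 to 4887 CPM in PLD, 6139 to 8057, 2627 to 2799.9 and 7439 to 12564 CPM in WT). Within PLD, replicate 1 had the lowest of each sum, with the highest Gpx3 and the lowest Gpx8. The part of those cells was not tested.

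The peroxidases Gpx1 to Gpx4 and thioredoxin reductase are selenoproteins, whose active site holds selenocysteine, read from a TGA codon that elsewhere ends translation. Some of their messages, that of Gpx1 above all, are known to fall when selenium is short. They differed in direction here, as Gpx1, Gpx4 and Txnrd1 were higher, Gpx3 lower and Gpx2 not called. The coding sequence around that codon is shown from GENCODE vM21 on GRCm38, in coding orientation with TGA in capitals and coordinates of the codon. For each gene the longest annotated coding sequence with a selenocysteine was taken. Codon numbers belong to that form, and which form is expressed here was not tested.
Gpx1, chr9:108339451-108339453, plus strand, codon 47: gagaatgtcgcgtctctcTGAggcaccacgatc
Gpx2, chr12:76795256-76795258, minus strand, codon 40: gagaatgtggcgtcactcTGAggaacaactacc
Gpx3, chr11:54907256-54907258, plus strand, codon 73: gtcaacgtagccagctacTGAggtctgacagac
Gpx4, chr10:80054737-80054739, plus strand, codon 129: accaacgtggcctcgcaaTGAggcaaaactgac
Txnrd1, chr10:82896037-82896039, plus strand, codon 612: atcctccagtctggctgcTGAggttaa
In these longest forms the codon is number 47 of 201 in Gpx1 and number 612 of 613 in Txnrd1, where it stands just before the end of the protein.

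In the thioredoxin line, 4 of the 6 tested peroxiredoxins, thioredoxin, its reductase and sulfiredoxin were higher in PLD. Peroxiredoxins reduce peroxides through a reactive cysteine that thioredoxin restores. Prdx1, at chr4:116685544-116700822, an abundant cytosolic form, was at 471, 497 and 478 CPM in PLD and 185, 164 and 164 CPM in WT (log2 fold change 1.49 ± 0.10, adjusted p = 6.21e-05), with narrow groups far apart. Its share of the summed peroxiredoxin level per kb was 46.7 ± 1.22% in PLD against 30.0 ± 0.954% in WT (SD, n = 3; exact permutation p = 0.1, the smallest possible). Prdx6, which uses glutathione in place of thioredoxin, was at 187, 207 and 189 CPM in PLD and 137, 119 and 112 CPM in WT (log2 fold change 0.67 ± 0.11, adjusted p = 0.00184). Prdx3, the mitochondrial form, was at 64.0, 60.3 and 49.4 CPM in PLD and 40.3, 39.8 and 32.9 CPM in WT (log2 fold change 0.62 ± 0.14, adjusted p = 0.0066), and its call ended once the trend with gene length was removed. The groups of both genes were apart by less than for Prdx1. Cytosolic Prdx2 was also higher (log2 fold change 0.59 ± 0.15, adjusted p = 0.0135), while the endoplasmic reticulum form Prdx4 and the peroxisomal and mitochondrial Prdx5 did not pass (log2 fold changes 0.12 and 0.27).

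Txn1, thioredoxin itself, was at 182, 200.4 and 177 CPM in PLD and 103, 132 and 125 CPM in WT (log2 fold change 0.63 ± 0.12, adjusted p = 0.00344), and this call too ended once the length trend was removed. Txnrd1, the cytosolic reductase that feeds it electrons from NADPH, was at 670.3, 650.1 and 715 CPM in PLD and 436, 332 and 455 CPM in WT (log2 fold change 0.73 ± 0.14, adjusted p = 0.00397). Srxn1, sulfiredoxin, at chr2:152105516-152111376, which rescues peroxiredoxins from overoxidation, was at 425, 242 and 242 CPM in PLD and 119, 71.6 and 115 CPM in WT (log2 fold change 1.57 ± 0.28, adjusted p = 0.00268). No PLD value of these 3 genes fell into the WT range. In Srxn1 PLD replicate 1 and WT replicate 2 stood away from their groups. Of the 3 enzymes that act on superoxide and hydrogen peroxide without thiols, 1 was higher. Sod1, the cytosolic superoxide dismutase, was at 249, 208 and 195 CPM in PLD and 164, 146 and 153 CPM in WT (log2 fold change 0.50 ± 0.12, adjusted p = 0.0102). Sod2, its mitochondrial counterpart, was at 89.2, 95.4 and 89.8 CPM in PLD and 93.2, 121 and 117 CPM in WT and did not pass (log2 fold change -0.27 ± 0.12, adjusted p = 0.0871). Catalase, the peroxisomal enzyme encoded by Cat, was at 209, 291 and 272 CPM in PLD and 204, 182 and 217 CPM in WT and did not pass either (log2 fold change 0.35 ± 0.15, adjusted p = 0.0727). Leaving out 1 library gave a call for both, Sod2 with a log2 fold change of -0.38 without WT replicate 1 and Cat with 0.49 without PLD replicate 1.

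**Figure D3:**
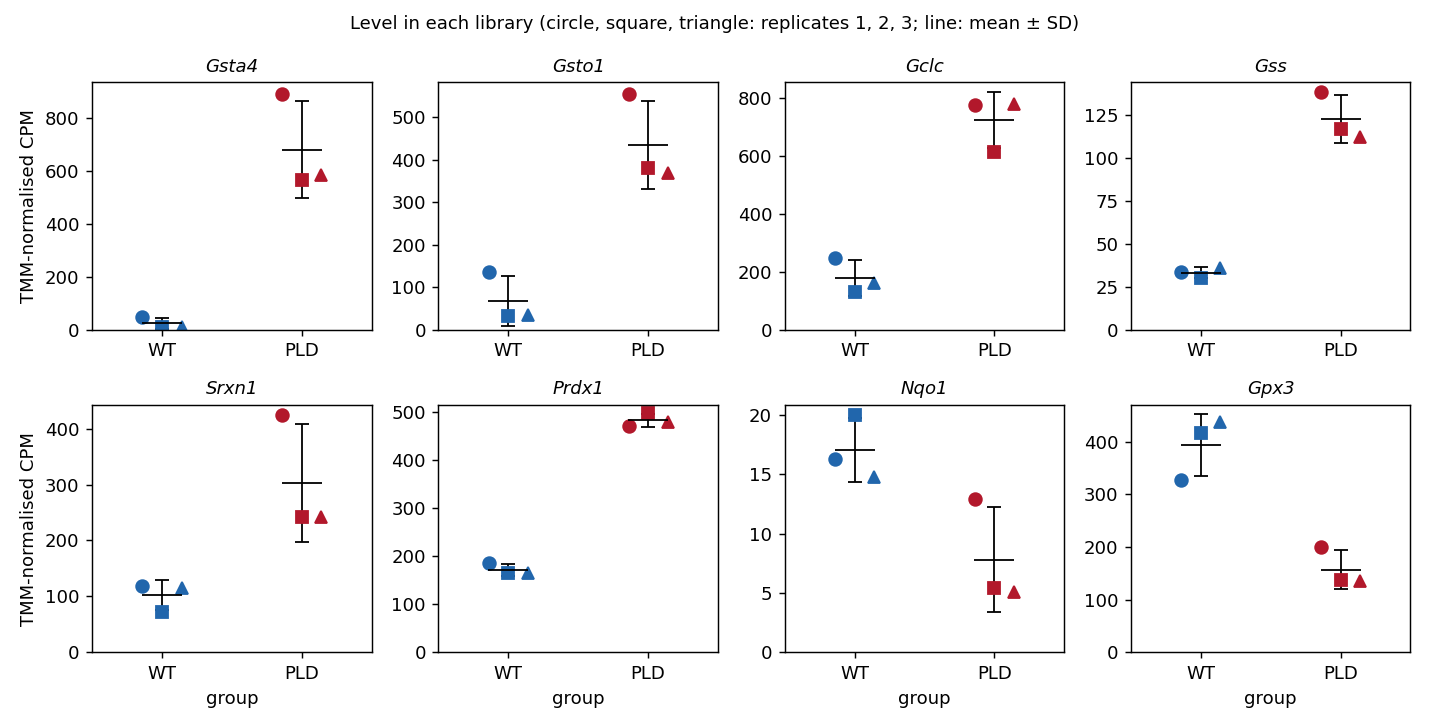
TMM-normalised CPM, on linear axes from 0, in each of the 3 WT and 3 PLD libraries for 8 genes, with lines for the mean ± SD and replicates 1, 2 and 3 as circle, square and triangle. In Gsta4 and Gsto1 the first WT library stands above the other WT libraries, in Gclc and Prdx1 the groups are far apart, and Gpx3 and Nqo1 show the PLD libraries below WT.

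The messages of NRF2 and KEAP1 themselves did not differ by the test. Nfe2l2 was at 493, 454 and 431 CPM in PLD and 375, 383 and 429 CPM in WT (log2 fold change 0.22 ± 0.11, adjusted p = 0.137), with the PLD values just above the WT values. Keap1 was at 30.0, 33.3 and 35.5 CPM in PLD and 34.9, 39.6 and 33.9 CPM in WT (log2 fold change -0.13 ± 0.11, adjusted p = 0.355), with overlapping groups. NRF2 protein was not measured here. Hmox1 and Nqo1, both in common use as readouts of NRF2, went in opposite directions. Hmox1, at chr8:75093621-75100589, heme oxygenase, which breaks heme down to biliverdin and is also strong in macrophages, was at 300.0, 426 and 445 CPM in PLD and 185, 193 and 227 CPM in WT (log2 fold change 0.95 ± 0.17, adjusted p = 0.00271). Nqo1, at chr8:107388225-107403206, a quinone reductase regarded as a prototype NRF2 target, was at 12.9, 5.42 and 5.10 CPM in PLD and 16.3, 20.0 and 14.7 CPM in WT (log2 fold change -1.13 ± 0.36, adjusted p = 0.0289). Its groups did not overlap, yet PLD replicate 1 came close to WT, and the call ended when PLD replicate 2, PLD replicate 3, WT replicate 2 or WT replicate 3 was left out (log2 fold changes from -1.22 to -0.89). Nqo1 shares no 50-base word with another gene and was among the scarcer of the 14 genes named one by one. Macrophage markers, given here because of Hmox1, summed to 595 to 814 CPM in PLD and 785 to 1054 CPM in WT. Without Mrc1, left out after the values were seen (40.5 to 49.5 CPM in PLD and 312 to 497 CPM in WT), the sum was 555 to 764 CPM in PLD and 433 to 557 CPM in WT. Csf1r, the only marker called higher, was the largest part of that sum, at 267 to 429 CPM in PLD and 134 to 144 CPM in WT (log2 fold change 1.38 ± 0.18, adjusted p = 0.000638). Of the 12 markers, 10 were not called, so both sums depend on single genes. The part of macrophages in the level of Hmox1 was not tested. The endothelial, smooth muscle and fibroblast sums given above were, like Nqo1, lower in PLD than in WT. Within PLD, however, replicate 1 had the lowest of each sum and the highest Nqo1 level. The part of those cells in the level of Nqo1 was not tested.

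The core of the antioxidant response element, TGACNNNGC, was searched on both strands in the RefSeq promoter windows of GRCm38.p6, from 250 bases before to 50 bases after each start. Of the 54 genes 47 had a window, and Gclc, Hmox1, Gsta4, Prdx6, Gstt2, Gsr and Prdx6b did not match the table. The core was present in 10 of the 47 (21.3%), against 14% of all 27025 genes in the table. It was found in 7 of 21 genes called higher, 0 of 5 called lower and 3 of 21 not called or not tested. The windows of Gclm, Srxn1, Txnrd1, Prdx1 and Gsta3, all called higher and from different roles, and of Nfe2l2 itself are shown 5′ to 3′ on the strand of the gene, with the core in capitals; where the core lies on the opposite strand its complement, GCNNNGTCA, is what appears.
Gclm, chr3:122245403-122245451, plus strand: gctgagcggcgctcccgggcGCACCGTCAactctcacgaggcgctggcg
Srxn1, chr2:152105542-152105570, plus strand: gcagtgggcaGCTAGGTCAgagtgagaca
Txnrd1, chr10:82859094-82859142, plus strand: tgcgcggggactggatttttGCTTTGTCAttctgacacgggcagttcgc
Prdx1, chr4:116685446-116685494, plus strand: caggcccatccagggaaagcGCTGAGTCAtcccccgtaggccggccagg
Gsta3, chr1:21240444-21240492, plus strand: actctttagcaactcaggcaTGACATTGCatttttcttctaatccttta
Nfe2l2, chr2:75704875-75704913, minus strand: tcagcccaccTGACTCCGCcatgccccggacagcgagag
The match in Srxn1 lies 28 bases after the start and the others before it. In Prdx1 the core also holds the AP-1 core TGACTCA, seen here as its complement TGAGTCA. The remaining matches were in Sod1 and Mgst1, both called higher, and in Gstm5 and Gstm7, which were not called. A match describes letters in this window and shows neither binding nor regulation. The absence of a match, as in Nqo1 and the other genes called lower, says nothing about sequence outside the window.

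Since EpCAM-positive cells were selected and their markers differed between groups, each gene was also set against Epcam, as reads per 100 Epcam reads of the same library. Epcam was itself higher in PLD (log2 fold change 1.61 ± 0.24, adjusted p = 0.00107), so most genes fell on this scale: PLD lay above WT without overlap in 1.94% of all tested genes and below in 89%. Of the 48 genes, 3 lay above (Gsta1, Gsta4 and Gsto1), 31 below and 14 overlapped. These places depend on the marker chosen. Krt19, another cholangiocyte marker, had a log2 fold change of 3.26 ± 0.25 (adjusted p = 8.39e-05), larger than that of Epcam and that of Gsto1 (2.70). Gsta4 stood at 65.4, 58.1 and 63.7 reads per 100 Epcam reads in PLD and 12.3, 3.57 and 2.73 in WT, and Gsto1 at 40.8, 39.1 and 40.2 in PLD and 34.4, 12.8 and 7.99 in WT. For Gsto1 the first WT library nearly reached the PLD libraries. The genes of synthesis overlapped: Gclc stood at 57.0, 63.0 and 84.8 in PLD and 62.8, 50.6 and 38.7 in WT, and Gss at 10.2, 12.0 and 12.2 in PLD and 8.43, 11.8 and 8.66 in WT. Srxn1 stood at 31.2, 24.9 and 26.4 in PLD and 30.3, 28.2 and 27.7 in WT, and Prdx1 at 34.6, 51.2 and 52.1 in PLD and 47.1, 64.6 and 39.4 in WT. The groups overlapped in each of these 4 genes. Hmox1 was at 22.1, 43.9 and 48.5 in PLD and 46.9, 76.1 and 54.7 in WT, where the highest PLD library passed the lowest WT library. For Nqo1 the groups were far apart, with 0.950, 0.558 and 0.555 in PLD and 4.15, 7.89 and 3.54 in WT, and so they were for Gpx3, with 14.7, 14.1 and 14.7 in PLD and 83.2, 164 and 105 in WT. On the log2 scale, 8 of the 48 genes had a larger fold change than Epcam, namely Gclc, Gss, Gsta1, Gsta3, Gsta4, Gsto1, Gstp3 and Mgst3, and this difference was not tested.

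**Figure D4:**
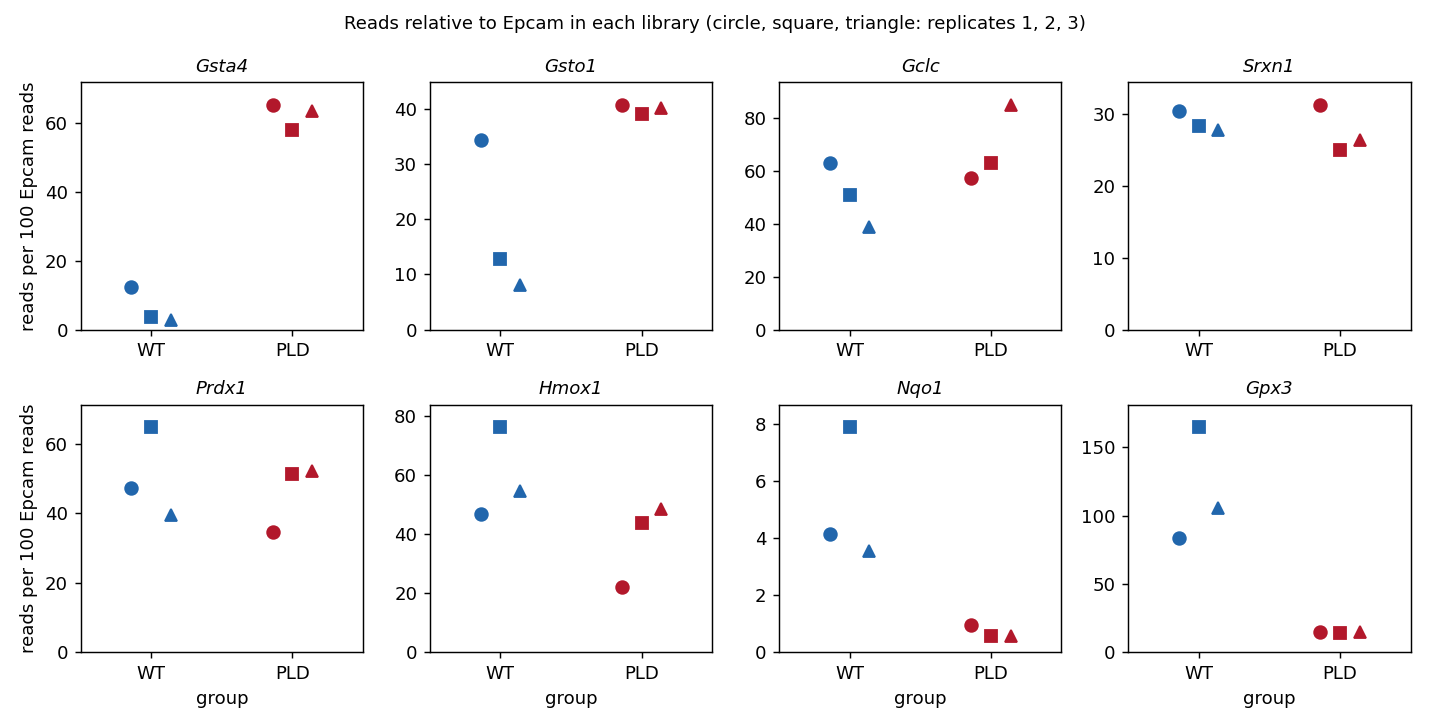
Reads per 100 Epcam reads in each library for 8 genes, on linear axes from 0, with replicates 1, 2 and 3 as circle, square and triangle. Gsta4 and Gsto1 lie above WT in all 3 PLD libraries, Gclc, Srxn1, Prdx1 and Hmox1 overlap, and Nqo1 and Gpx3 lie below.

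Genes that share these pathways but lie outside the set were read from 5 lists. Shared sequence was not measured for them, Ftl1 below included. How many of their reads fit several genes and were left uncounted is therefore not known. Of 31 tested genes linked to NRF2 as targets, 16 were higher and 5 lower, with a median log2 fold change of 0.63 (27% and 28.4% of all tested genes, median 0.01). Akr1b8, an aldo-keto reductase, was at 277, 225 and 236 CPM in PLD and 39.3, 32.2 and 31.9 CPM in WT (log2 fold change 2.83 ± 0.14, adjusted p = 2.81e-05). Me1 and Pgd, which supply NADPH, had log2 fold changes of 1.78 ± 0.13 and 1.62 ± 0.14 (adjusted p = 6.33e-05 and 0.000123), and the esterase gene Esd had 1.45 ± 0.09 (adjusted p = 4.62e-05). The 5 lower genes, named after their values were seen, were Aox1, Aldh3a1, Ftl1, Slc7a11 and Abcc4. Among them Slc7a11, the cystine carrier that feeds glutathione synthesis, was at 11.2, 7.49 and 8.09 CPM in PLD and 24.7, 13.7 and 15.5 CPM in WT (log2 fold change -1.01 ± 0.26, adjusted p = 0.0136). Of 12 NRF2 partners and regulators, 5 were higher and 2 lower (median 0.32). Sqstm1, encoding p62, a protein that draws KEAP1 into autophagy, was at 4525, 4175 and 3914 CPM in PLD and 2100.5, 1695 and 2487 CPM in WT (log2 fold change 1.01 ± 0.18, adjusted p = 0.00258). Rbx1 and Cul3, parts of the ligase that KEAP1 steers, had log2 fold changes of 0.60 ± 0.10 and 0.51 ± 0.13 (adjusted p = 0.00192 and 0.0147), and the repressor Bach2 had -0.88 ± 0.18 (adjusted p = 0.00467). Cul3 lost its call without WT replicate 2.

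Of 20 genes of glutathione supply and turnover, 5 were higher and 6 lower (median 0.04). Over all tested genes 27% were higher and 28.4% lower, which is also the comparison for the lists below. Hagh, of the glyoxalase path, had a log2 fold change of 1.47 ± 0.15, Sqor, a mitochondrial sulfide oxidase, 1.12 ± 0.10, and Oplah, which recycles oxoproline to glutamate, 0.78 ± 0.11 (adjusted p = 0.000231, 0.000119 and 0.001). Ggt5, an extracellular glutathione-cleaving enzyme, was lower, at 5.50, 3.84 and 4.08 CPM in PLD and 17.1, 20.4 and 20.0 CPM in WT (log2 fold change -2.10 ± 0.18, adjusted p = 0.000131). Of 21 other thiol repair genes, 12 were higher and 5 lower (median 0.42). Txnl1, a thioredoxin-like protein, had a log2 fold change of 0.84 ± 0.09 (adjusted p = 0.000298), while Msrb3, Nxn and Sesn1 had -2.42 ± 0.24, -2.17 ± 0.23 and -1.39 ± 0.14 (adjusted p = 0.000223, 0.000254 and 0.00022). Of 17 tested genes of oxidant-producing enzymes, 2 were higher and 9 lower (median -0.55). Named after their values were seen, Noxa1 was called higher (log2 fold change 1.46 ± 0.38, adjusted p = 0.0129), and Duoxa2 and Duoxa1 did not pass (2.35 and 2.56). Every PLD value of these genes lay above every WT value. In WT replicates 1, 2 and 3, Duoxa2 was at 23.4, 0.235 and 1.23 CPM and Duoxa1 had 13, 0 and 0 reads. Duox2 overlapped, at 136, 68.6 and 90.5 CPM in PLD and 105, 2.53 and 7.96 CPM in WT. It did not pass (log2 fold change 1.35). Lox, which crosslinks collagen and is made mainly by stromal cells, was at 22.2, 23.4 and 26.9 CPM in PLD and 82.9, 125 and 96.1 CPM in WT (log2 fold change -2.07 ± 0.17, adjusted p = 9.63e-05). Nox4, an NADPH oxidase that releases hydrogen peroxide, had the largest difference of the list and is named after its values were seen. It was at 0.825, 0.487 and 0.300 CPM in PLD and 9.31, 7.54 and 9.87 CPM in WT (log2 fold change -4.05 ± 0.34, adjusted p = 0.000113). Maob, a mitochondrial amine oxidase, had a log2 fold change of -2.04 ± 0.33 (adjusted p = 0.0017). The membrane subunits of the phagocyte NADPH oxidase differed in direction, Cyba with 0.76 ± 0.14 and Cybb with -0.67 ± 0.12 (adjusted p = 0.0028 and 0.00218), and Cyba lost its call once the length trend was removed. Like the lower members of these lists, the endothelial, smooth muscle and fibroblast marker sums given above were lower in PLD than in WT. Within PLD, replicate 1 had the lowest of each sum. Of the lower genes named here, Lox, Msrb3, Nxn, Sesn1, Maob and Cybb were lowest in that library. Nox4 and Ggt5 were highest in it. The part of those cells was not tested.

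**Figure D5:**
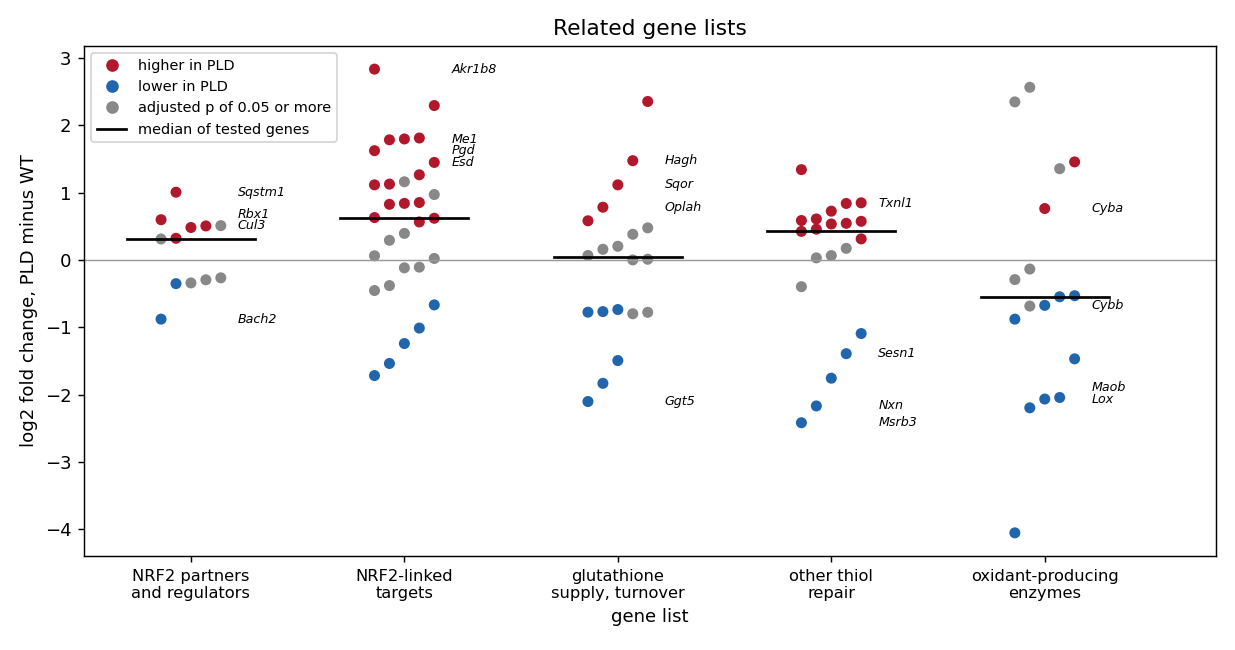
Log2 fold change (PLD minus WT) of every tested gene in the 5 related lists, red when called higher, blue when called lower and grey otherwise, with the list median as a bar and named genes labelled. NRF2-linked targets lie mostly above 0 (16 higher, 5 lower) and oxidant-producing enzymes mostly below (2 higher, 9 lower).

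The 6 untested genes had at most 45 reads over all libraries. Gpx5, a form of the epididymis, and Gpx6, of olfactory tissue, had no read in any library. At most between 0.177 and 0.206 CPM could thus have gone unseen per library. Gstm3, Gstt4 and Prdx6b had a few reads in some libraries and Gsta2 is described above. Besides Gsta1, Gsta2, Gstp1 and Gpx4, more than 10% of the 50-base words were shared with other genes in Gstp2 (54.3%), Gstm3 (28.8%), Sod2 (21.0%) and Gstm1 (18.9%). In 30 of the 54 genes no word was shared, among them Gsta4, Gsto1, Gclc, Srxn1, Gpx3, Hmox1 and Nqo1. Exons of 8 genes (Gss, Prdx2, Prdx5, Gstz1, Keap1, Gclm, Gstm5 and Gstt3) overlap those of another gene. Strand was not used in the counting, so reads that fall on both genes there are left uncounted. In 8 tested genes WT replicate 1 was more than 2-fold above both other WT libraries (Gpx2, Gsta1, Gsta4, Gsto1, Gsto2, Gstp2, Gstp3 and Mgst2).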

How the data were processed

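Polyadenylated RNA of EpCAM-selected primary cholangiocytes was sequenced in 3 PLD and 3 WT libraries. The authors deposited 1 table of raw read counts per library, made with featureCounts 1.6.0 on GENCODE vM25 (mm10), per the file headers. In the command given there, strandedness, read pairs, multi-mapping and overlapping features were left at their defaults. At these defaults, reads that map to several places or overlap several genes are not counted. STAR 2.7.4a, SAMtools 1.12 and DESeq2 1.26.0 are named per the submitters' processing notes. The deposited table also gives each gene's exonic length in bases, per the file headers, which was used as it stands for values per kb. It covers all annotated exons and not the transcripts expressed, so ranks and shares per kb are approximate.

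Symbols and gene types came from GENCODE vM21 by gene ID, for 55141 of 55401 IDs. The genes, the related lists and the marker lists were chosen with earlier results of these data known, so no count over them is independent support. Genes named one by one in the set are always given. Of each family, every called gene with a log2 fold change of at least 1 in size, the 3 genes of smallest p and the 3 most abundant genes per kb of the set were named, and up to 4 genes of smallest p of each related list, where the mean log2 CPM reached 3. Other genes are named to complete a count, after their values were seen.

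The main test was edgeR's quasi-likelihood F test (version 4.0.16, R 4.3.3) of PLD against WT with no covariate. The low-count filter filterByExpr left 15334 genes, and TMM factors ran from 0.922 to 1.04. P-values were adjusted over all tested genes by Benjamini-Hochberg with a threshold of 0.05. The biological coefficient of variation was 0.196. Standard errors were taken as the log2 fold change over the root of its F statistic, and CPM are TMM-normalised. Shares used a 2-sided exact permutation test. Depth ran from 15768561 to 16710548 reads per library. Intervals and floors cover counting error only, since no molecular identifiers are mentioned. The functions were tested on simulated data. Replicates of a group differed by more than sampling noise (chi-square per degree of freedom 9.72 to 63.9). Whether replicates are separate animals is not stated in the labels, and the p-values therefore reflect only how these libraries vary, which may be technical.

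Alternatives were RLE and upper-quartile factors, no low-count filter, a filter of 1 CPM in 3 libraries, DESeq2 1.42.0, limma-voom 3.58.1, a robust fit, a replicate block, a minimum log2 fold change of 1, removal of a loess trend with gene length (span 0.5), and leaving out each library. Shared sequence was measured as the percentage of 50-base words of a gene's GENCODE vM21 transcripts that occur in another gene. It was measured for the genes of the set only.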

Additional observations from a re-analysis of the deposited data

How the results depend on the processing

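No called gene of the set changed direction under any alternative listed above. With a test against a 2-fold difference, 9 genes of the set were higher and 0 lower (13 and 1 at an unadjusted p under 0.05). Over all 15334 tested genes, that test called 626 higher and 1650 lower. DESeq2 against no difference called 28 higher and 5 lower of 52 genes of the set. Of all 30978 genes with a DESeq2 p-value, 4248 were higher and 4546 lower. In the test against a 2-fold difference, 9 related genes were higher and 11 lower, against 40 and 27 without that minimum. Leaving out each library in turn gave 25 to 28 genes of the set higher and 2 to 5 lower, with 2 lower without PLD replicate 2, WT replicate 2 or WT replicate 3, and 34 to 41 related genes higher and 20 to 26 lower. Of the 15673 to 15827 genes tested in these fits, 3173 to 4183 were higher and 3626 to 4562 lower. Removing the trend with gene length left 22 genes of the set higher and 5 lower (4212 and 4096 of all 15334 tested genes). Gpx1, Gstm2, Prdx3 and Txn1 lost the call (log2 fold changes 0.20, 0.04, 0.31 and 0.27). Of the 26 higher genes, 22 were called under all 15 alternatives other than the 2-fold minimum, and of the 5 lower genes Gpx3 and Gstk1 were. The cause of the lost calls was not tested. With the replicate number as a block, 26 genes of the set were higher and 4 lower, and 44 related genes higher and 25 lower. Of all 15334 tested genes, 3920 were higher and 4242 lower in that fit. Under the block Gstm1 gained a call and Gstm2 and Gstm4 lost theirs. In their deviations from the group means, same-numbered libraries correlated at r = 0.16, 0.04 and 0.06 across genes. The r of 0.16, between PLD replicate 1 and WT replicate 1, was the highest of all pairs. WT replicates 2 and 3 correlated best with PLD libraries of another number. Whether libraries of the same number were handled together is not stated in the labels and cannot be decided from these values. The class shares of the transferases kept their direction without division by length, without Gsta1 and Gsta2, and without each library. Depth limits the genes with few reads, such as Gsta1, Gsta2, Gstm3, Gstp2 and Mgst2, and 3 libraries per group cannot reach an exact permutation p under 0.1.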
